A study of Homo sapiens with 12 samples.

Results

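Mitotic spindle and kinetochore genes encode the proteins that start mitosis, hold chromosomes to the spindle, check that hold, pull sister chromatids apart and divide the cell. Here 60 of them were taken from a written list of names, drawn up with earlier results of these data known and with no measured value in its rule, and each was represented by 1 probe set of the array. A probe set is a group of array probes read together, which can match more than 1 transcript. Of the 60 genes, 59 were measured, out of 10626 genes measured on the array. The exception was INCENP, the scaffold subunit of the chromosomal passenger complex, whose probe set lay between 2.26 and 2.71 (log2, median 2.30) and exceeded the floor of log2 4 in 0 of 12 arrays. FOXM1, PTTG1 and CENPA were each read from a probe set marked by the maker as open to cross-hybridisation, since none without that mark was kept here.

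The cells were HK-2, immortalised human epithelial cells of the renal proximal tubule, which as background were made with the E6 and E7 genes of a papillomavirus. All groups were fed a DMEM and Ham's F12 mix with EGF, hydrocortisone, insulin, transferrin and selenite, were seeded 24 h before treatment, and were treated at about 90% confluence. The groups were Di for 12 h, vehicle control for 12 h, Di for 48 h and vehicle control for 48 h, each with 3 arrays labelled as biological replicates. Di is one of the compounds of a study of kidney cell toxicity, and the sources used here name neither the substance nor the dose. The comparisons ask how the mitotic genes changed in control cells between the times, and how Di cells differed from control cells at each time.

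As background, cells enter mitosis when cyclin B and CDK1 are switched on by CDC25 phosphatases. Kinetochores, the protein plates on centromeres, then bind spindle microtubules, and the spindle checkpoint holds back the anaphase promoting complex until every chromosome is attached. Genes for these steps are transcribed mainly in G2 and M phase. Many of their promoters carry a cell cycle homology region (CHR), bound by the DREAM complex in resting cells and by MYBL2 and FOXM1 complexes in dividing cells, with CCAAT boxes bound by NF-Y further upstream. Healthy proximal tubule cells in the kidney seldom divide, whereas the HK-2 line proliferates in culture.

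The promoters show what the genes share beyond their role. RefSeq promoter windows (GRCh38.p14, 250 bases before to 50 after an annotated start) matched 51 of the 60 genes with 64 windows, and windows of 1 gene can overlap and then share bases. Entries for FOXM1, AURKA, BUB3, TTK, UBE2C, CENPM, BIRC5, TPX2 and RACGAP1 were not used here. A CHR-type hexamer (TTTGAA or TTCGAA, read on either strand, so that TTCAAA also counts) lay in 45 of the 64 windows (70.3%), against 16.4% of all 35116 windows and 13.7% of 22199 protein-coding windows. The letters CCAAT, on either strand, lay in 46 of the 64 windows (71.9%), against 34.6% of all windows. Between 100 bases before and 50 after the start, the CHR-type hexamer lay in 62.5% of the members' windows, against 7.37% of all windows. The hexamers printed here come from genes of 6 of the 8 roles, including CENPN, the member that was called higher in Di at 48 h. Each stretch runs 5′ to 3′ on the gene's strand, with 12 bases on each side of the hexamer nearest the start and every hexamer in capitals.
CCNB2 (chr15:59105105-59105134, plus strand): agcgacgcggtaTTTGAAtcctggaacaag
PLK1 (chr16:23678848-23678877, plus strand): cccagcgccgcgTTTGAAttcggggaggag
CDC25C (chr5:138331817-138331846, minus strand): gctggcggaaggTTTGAAtggtcaacgcct
CDCA3 (chr12:6851272-6851301, minus strand): cgtggcgggaagTTTGAAactggtaacttc
BUB1B (chr15:40161034-40161063, plus strand): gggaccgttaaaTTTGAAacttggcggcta
CENPA (chr2:26786026-26786055, plus strand): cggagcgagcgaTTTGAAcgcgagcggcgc
CENPN (chr16:81007205-81007234, plus strand): gcaattggtggcTTTGAAggcgcggcgagc
KIF4A (chrX:70290058-70290087, plus strand): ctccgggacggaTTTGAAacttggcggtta
HMMR (chr5:163460598-163460627, plus strand): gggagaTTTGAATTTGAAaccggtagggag
MKI67 (chr10:128126435-128126464, minus strand): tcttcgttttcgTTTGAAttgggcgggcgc
HMMR holds 2 hexamers side by side. In 9 of these 10 genes the hexamer nearest the start began 3 to 34 bases before the annotated start, and in CENPN it began 3 bases after it. A hexamer and a CCAAT box can share a base, as they do in the MKI67 stretch, where the last capital opens a CCAAT box read on the other strand. A match is a run of letters and not a measured binding site.

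**Figure D1:**
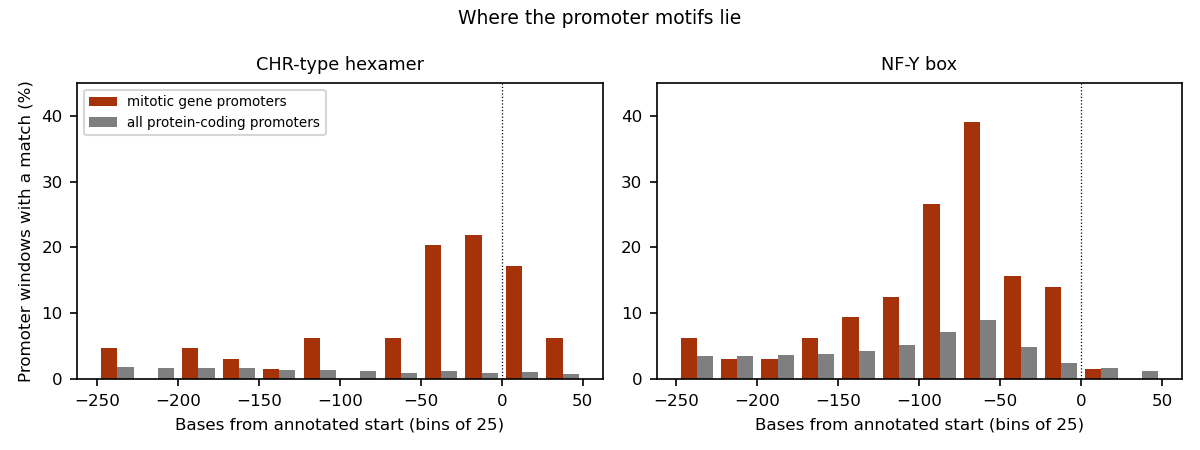
Share of promoter windows (%) with a CHR-type hexamer (left) or a CCAAT box (right), by distance from the annotated start in bins of 25 bases, for mitotic genes and for all protein-coding genes. The mitotic bars for the hexamer reach 21.9% in the 25 bases before the start, beside 1.00% of protein-coding windows, and those for the CCAAT box reach 39.1% between 75 and 50 bases before it, beside 8.91%.

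Neither TTTGAA nor TTCGAA, read on either strand, lay in any window of 10 members. These were CCNB1, CCNA2, NEK2, PTTG1, CENPE, CENPK, AURKB, KIF20A, KIF2C and NCAPH. No other letters were searched for as a CHR, so these genes are not shown to lack one. KIF20A is shown because it had the largest change of all members. The 130 bases before its start, chr5:138178982-138179111 on the plus strand, hold 2 CCAAT boxes, here in capitals as read on the other strand.
KIF20A: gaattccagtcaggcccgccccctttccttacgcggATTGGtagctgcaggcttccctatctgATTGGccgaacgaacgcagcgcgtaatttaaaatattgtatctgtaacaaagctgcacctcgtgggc
Members with and without the hexamer had similar medians. Median changes of Di against control at 48 h were -1.15 (log2) over the 40 measured genes with a hexamer and -1.11 over the 10 without. For control cells at 48 h against control cells at 12 h the medians were -1.92 with it and -1.88 without it.

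Values are the authors' log2 expression values, so a difference of 1 is a 2-fold change, and levels are compared between groups for 1 probe set, never between genes. The array medians lay between 2.97 and 3.06. Of 16 proximal tubule markers 7 were measured, among them the keratins KRT8 and KRT18, PAX8 and VIM, while AQP1, GGT1, ANPEP, LRP2, CUBN, SLC22A6 and SLC34A1, markers of the working tubule, stayed between 1.82 and 3.87 and were not measured. None of 10 endothelial and leukocyte markers was measured, nor were the fibroblast markers COL1A2, COL3A1, PDGFRA, PDGFRB and POSTN. The other fibroblast markers, DCN, LUM and COL1A1, had a summed linear level of 662.2 to 850.2 in Di at 48 h, 1345 to 1438 in control at 48 h, 2594 to 3083 in the Di arrays at 12 h and 2805 to 3284 in the control arrays at 12 h, and their part in the results below was not tested. The array of Di at 12 h, replicate 2, lay farthest from its group mean over all genes (root mean square 0.252, against 0.111 to 0.182 for the other arrays). In that array 39 of the 59 members were below their group mean, while in control at 48 h, replicate 1, 44 were.

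The 59 members had a median level of 9.65 to 9.74 in the Di arrays at 12 h and 9.87 to 9.91 in the control arrays at 12 h. At 48 h it was 6.56 to 6.92 in the Di arrays and 7.93 to 8.03 in the control arrays. The 4 groups thus lay in 4 separate bands, with Di at 48 h lowest. In a culture read as a whole, fewer dividing cells and less of these transcripts per cell cannot be told apart. In each Di array at 48 h 4 members lay under the floor of log2 4, and in the other 9 arrays 0 did. PLK1, ESPL1, CENPE, KIF15, KIF20A and NCAPH were the members affected, and where a group mean lay under the floor the fold is given as a lower bound against it.

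**Figure D2:**
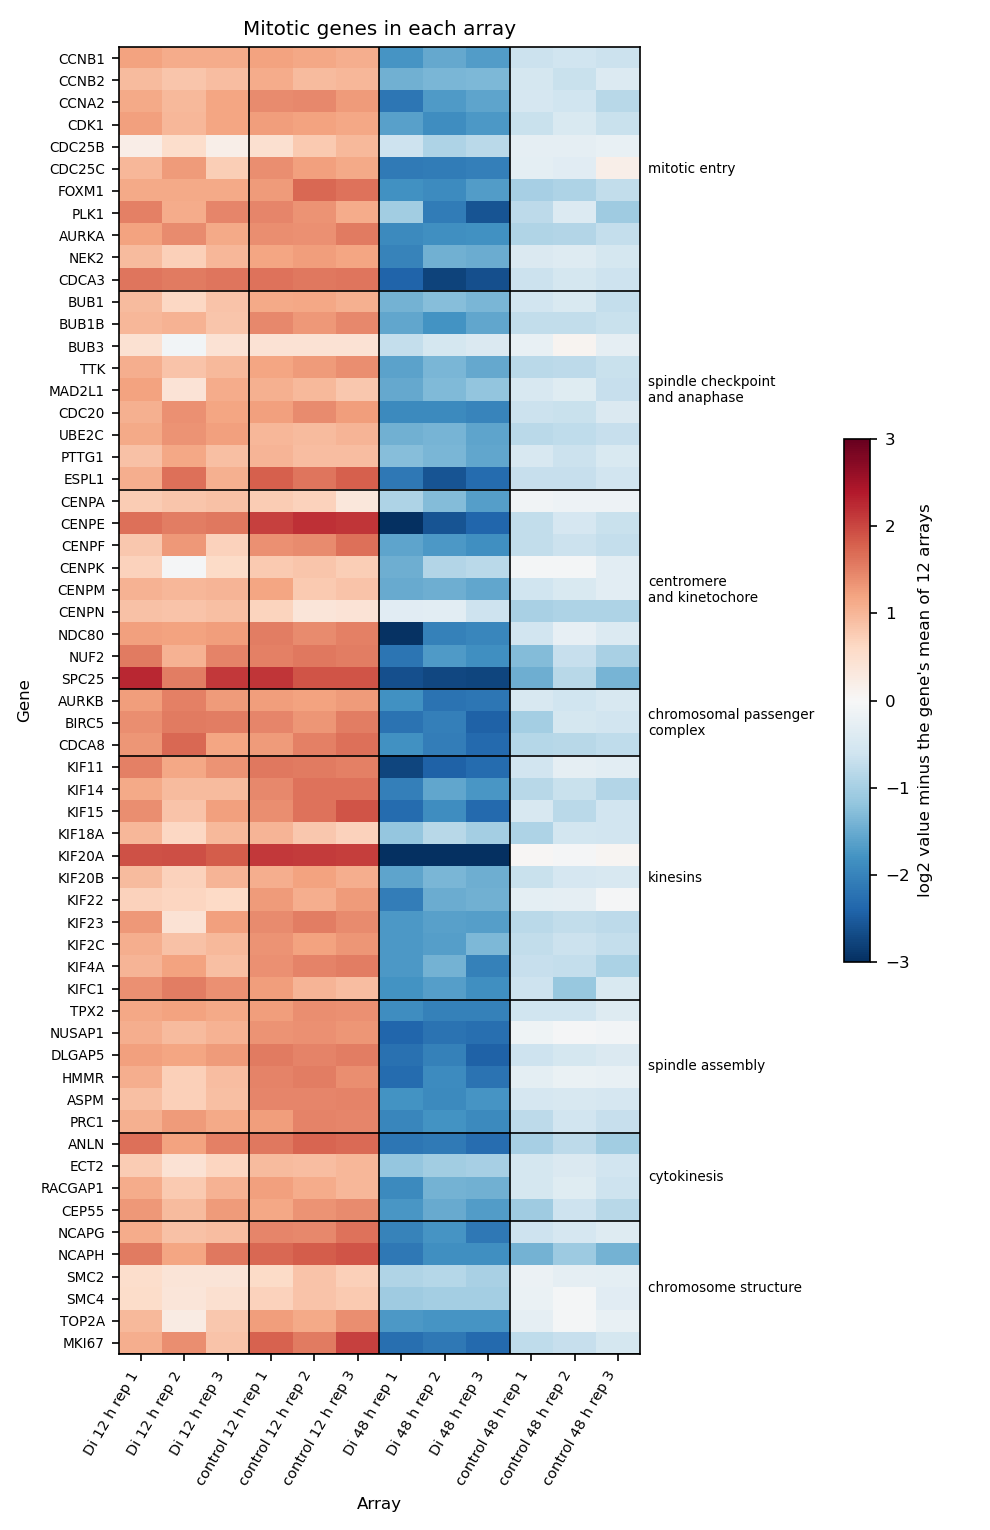
Log2 value of each of the 59 measured mitotic genes in each of the 12 arrays, minus that gene's mean over the 12 arrays, with genes in rows by role and arrays in columns by group. The 6 arrays at 12 h are red, the control arrays at 48 h pale blue and the Di arrays at 48 h dark blue in nearly every row, with CENPN the row in which Di at 48 h is paler than control at 48 h.

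Control cells lost mitotic transcripts between the 2 times with no Di present. All 59 members fell in control at 48 h against control at 12 h, beside 31.0% of all genes tested (limma, adjusted p under 0.05), and the 2 groups of arrays did not overlap for any of the 59, beside 37.5% of all genes that were lower without overlap. The median change was -1.90 for the members and -0.06 for all genes, and single members ranged from -3.21 to -0.58. Of the 59, 53 fell by at least 1 on the log2 scale. Under a centring of each array on the median of the genes tested, an alternative chosen after seeing the data, the 59 calls remained in number and the share of higher genes among all calls was 51.5%, against 41.3% on the deposited scale. The actin 3′ minus 5′ gap, a measure of RNA integrity, was 1.33 ± 0.128 in control at 48 h and 1.71 ± 0.178 in control at 12 h (log2, SD, n = 3 each, exact two-sided permutation p = 0.1, the smallest possible), and its part in the result was not tested.

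The largest losses over time were in genes of the kinetochore, condensin and the contractile ring. SPC25, a subunit of the NDC80 complex that grips microtubules, had 6.42, 7.06 and 6.48 in control at 48 h, against 10.04, 9.77 and 9.78 in control at 12 h, a difference of -3.21 ± 0.199 (SE, adjusted p = 2.28e-07) or 9.25-fold lower. NCAPH, the condensin I subunit that closes the ring around DNA, had 4.09, 4.41 and 4.09 in control at 48 h, against 7.23, 7.33 and 7.40 in control at 12 h, or 8.73-fold lower. In both genes every control array at 48 h lay more than 2 log2 units below every control array at 12 h. CENPE, the kinesin that carries chromosomes to the spindle equator, had 5.86, 6.10 and 5.93 in control at 48 h, against 8.65, 8.79 and 8.75 in control at 12 h, or 6.80-fold lower. ANLN, the scaffold of the contractile ring, had 9.34, 9.55 and 9.29 in control at 48 h, against 11.90, 12.08 and 12.04 in control at 12 h, or 6.12-fold lower. Smaller but still called were the checkpoint protein BUB3 (-0.58 ± 0.148, SE, adjusted p = 0.00664) and the centromeric histone CENPA (-0.73 ± 0.160, SE, adjusted p = 0.00249). Other BUB3 probe sets gave -0.51, -0.41 and -0.01, the last not called (adjusted p = 0.938). By role, medians ran from -2.15 for the 3 passenger complex genes to -1.74 for the 6 chromosome structure genes and -1.74 for the 9 checkpoint and anaphase genes.

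**Figure D3:**
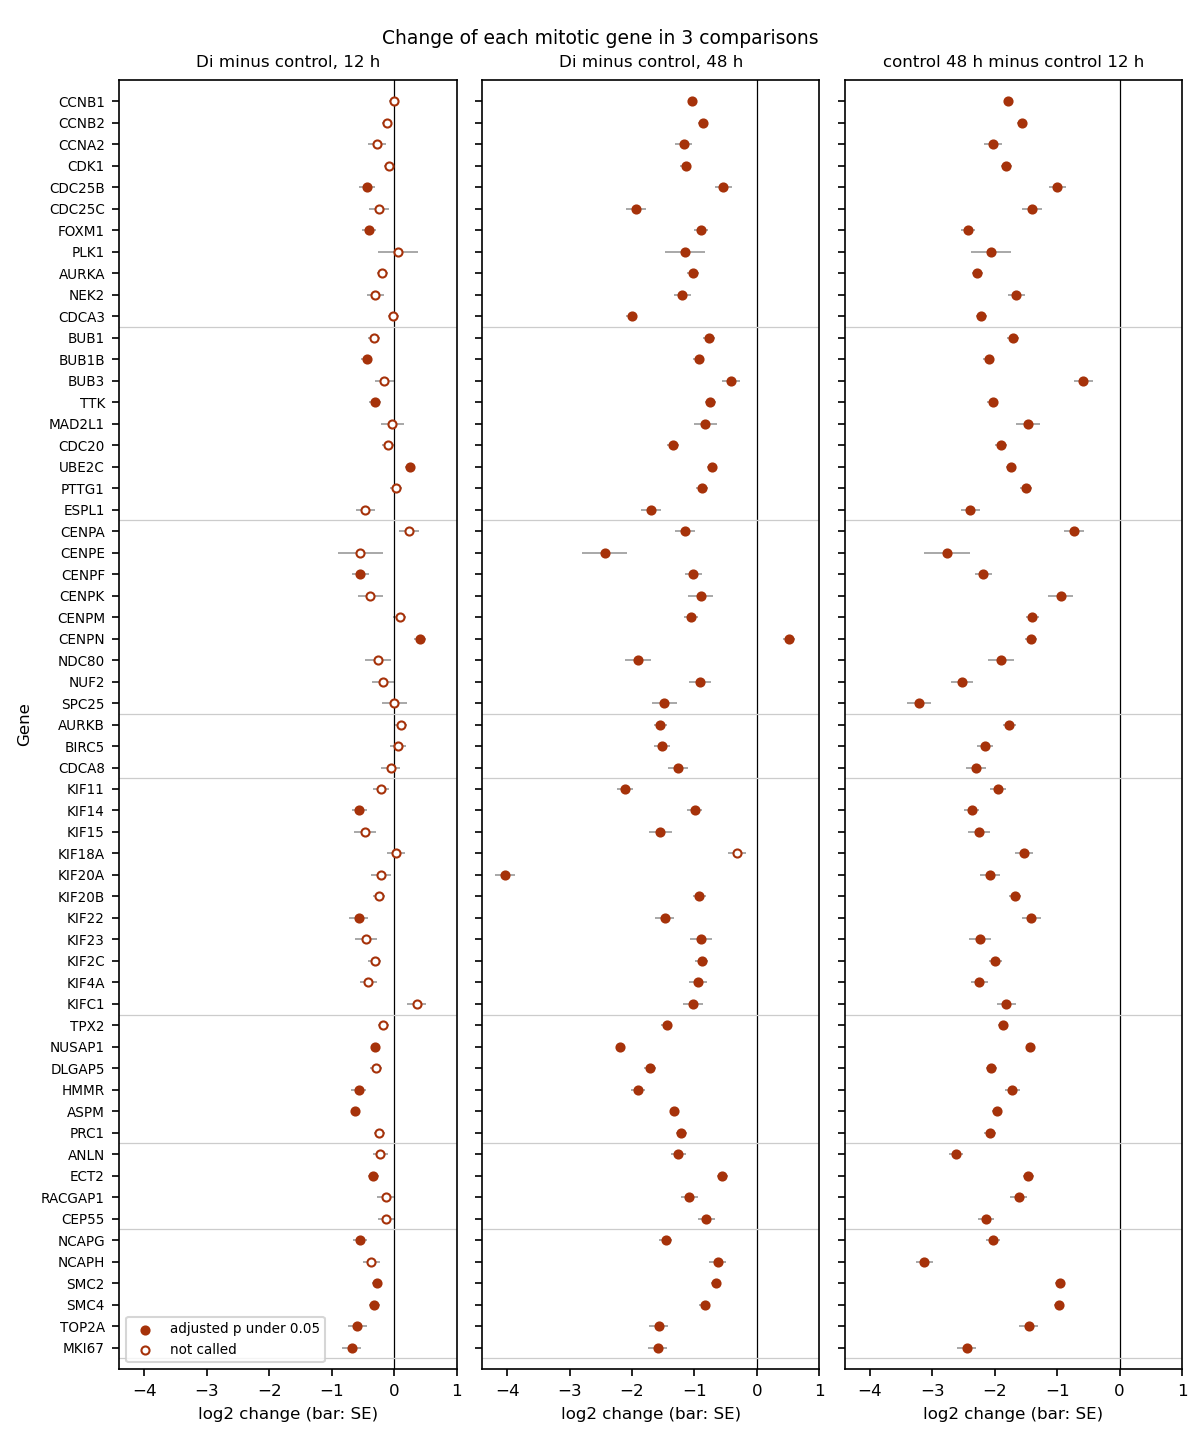
Log2 change of each measured mitotic gene with its standard error in Di against control at 12 h (left), Di against control at 48 h (middle) and control over time, 48 h minus 12 h (right), genes in rows by role, filled where the adjusted p was under 0.05. All 59 points of the right panel and 58 of the middle panel are filled, 18 of the left panel are, and the middle panel's outermost point is KIF20A at -4.03.

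Di cells at 48 h stood below control cells of the same age for nearly the whole set. Of 59 members 57 fell in Di at 48 h, beside 28.0% of all genes tested, 1 rose, CENPN, beside 22.9% of all genes, and 1, KIF18A, was not called. The median change was -1.08 for the members and -0.02 for all genes, and 35 members were lower by at least 1 on the log2 scale, with the floor not applied. KIF15 is among the 35, although its loss is bounded only at 1.76-fold or more. For 56 members every Di array lay below every control array at 48 h, beside 33.0% of all genes. This comparison and the one over time in control cells use the same 3 control arrays at 48 h, so each is given with its own values.

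**Figure D4:**
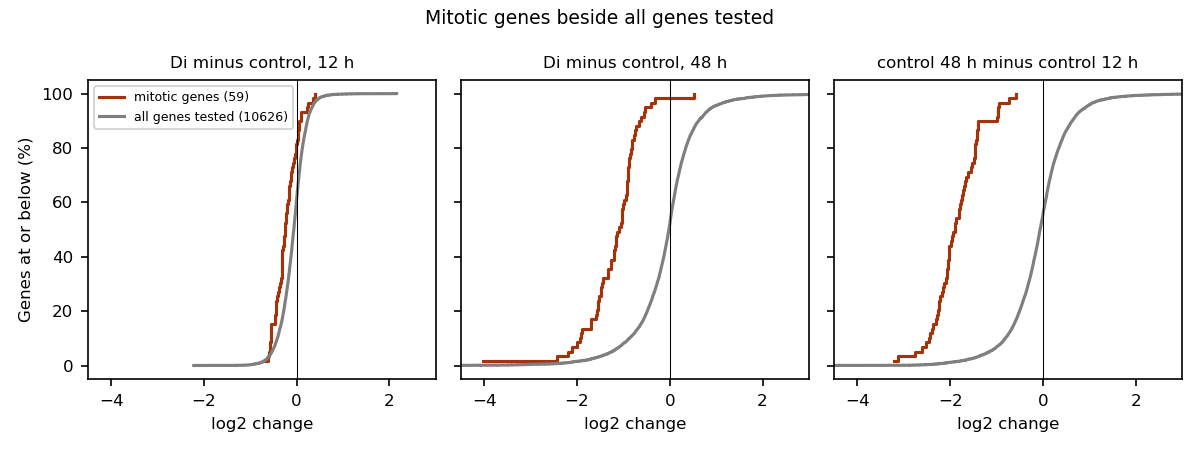
Cumulative share (%) of genes at or below each log2 change for the 59 mitotic genes and all 10626 genes tested, for Di against control at 12 h (left), Di against control at 48 h (middle) and control over time, 48 h minus 12 h (right). The mitotic curve lies left of the other over most of its length in each panel, with medians of -0.25 against -0.06, -1.08 against -0.02 and -1.90 against -0.06.

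Genes of mitotic entry fell in 11 of 11 cases, with a median of -1.14. CDCA3, which helps destroy the CDK1 inhibitor WEE1, had 6.31, 5.95 and 6.10 in Di at 48 h, against 8.07, 8.20 and 8.10 in control at 48 h. That was a difference of -2.00 ± 0.0865 (SE, adjusted p = 1.08e-08), or 4.01-fold lower, with no shared range between the groups. CDC25C, a phosphatase that switches on CDK1, had 4.34, 4.38 and 4.42 in Di at 48 h, against 6.19, 6.13 and 6.64 in control at 48 h. It was 3.83-fold lower (-1.94 ± 0.155, SE, adjusted p = 1.42e-06), with its Di arrays just above the floor and below every control array. CDC25B, the phosphatase that acts first at the centrosome, was the least changed of the role at 9.21, 8.90 and 9.03 in Di at 48 h, against 9.57, 9.56 and 9.62 in control at 48 h, or 1.45-fold lower with no overlap (adjusted p = 0.00530). The mitotic cyclins lay between, with CCNB1 2.05-fold, CCNB2 1.82-fold and CCNA2 2.26-fold lower, as did their partner CDK1 at 2.21-fold and the transcription factor FOXM1 at 1.86-fold lower. PLK1, a kinase of mitotic entry and spindle poles, had 4.81, 3.76 and 3.26 in Di at 48 h, against 5.06, 5.45 and 4.79 in control at 48 h. Its groups overlapped through the first Di array, and it was at least 2.15-fold lower at an adjusted p of 0.0100.

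Genes of the spindle checkpoint and of anaphase fell in 9 of 9 cases, with a median of -0.82. ESPL1, the separase that cuts cohesin between sister chromatids, had 4.31, 3.85 and 4.14 in Di at 48 h, against 5.75, 5.75 and 5.87 in control at 48 h. The change was -1.69 ± 0.156 (SE, adjusted p = 4.23e-06), or 3.23-fold lower, and 1 of the Di arrays was under the floor. CDC20, the activator of the anaphase promoting complex that the checkpoint restrains, had 7.04, 7.04 and 6.96 in Di at 48 h, against 8.29, 8.28 and 8.50 in control at 48 h, or 2.54-fold lower (-1.34 ± 0.0939, SE, adjusted p = 4.68e-07). Both genes were lower in every Di array than in every control array. By their chosen probe sets, genes of the checkpoint proteins had smaller folds than ESPL1 and CDC20, as had PTTG1 and UBE2C. The other probe set of BUB1 gave a larger change than its chosen one, -1.36 (adjusted p = 0.00120). BUB3 had 10.98, 11.18 and 11.27 in Di at 48 h, against 11.47, 11.78 and 11.43 in control at 48 h, with no overlap, but its difference of -0.42 ± 0.148 (SE, adjusted p = 0.0353) was lost when 1 of 4 arrays was left out, Di at 48 h replicate 1 or 2 or control at 48 h replicate 1 or 2, at adjusted p of 0.0524 to 0.137. BUB1B, TTK, BUB1 and MAD2L1 were 1.91-fold, 1.68-fold, 1.71-fold and 1.77-fold lower, and PTTG1, the securin that holds separase inactive, was 1.84-fold lower. UBE2C, the ubiquitin conjugating enzyme of the anaphase promoting complex, had 9.07, 9.10 and 8.93 in Di at 48 h, against 9.70, 9.74 and 9.82 in control at 48 h, or 1.64-fold lower with no overlap.

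Of 9 centromere and kinetochore genes 8 fell and 1 rose, with a median of -1.06 and a range from -2.44 to 0.52. CENPE had 2.34, 4.005 and 4.22 in Di at 48 h, against 5.86, 6.10 and 5.93 in control at 48 h. The first Di array was far below the other 2, all 3 were below the control arrays, the mean lay under the floor, and the loss was at least 3.90-fold (adjusted p = 0.000193). NDC80, the subunit that touches the microtubule, had 5.00, 5.91 and 6.00 in Di at 48 h, against 7.38, 7.69 and 7.55 in control at 48 h, which is 3.73-fold lower (-1.90 ± 0.210, SE, adjusted p = 1.82e-05). SPC25 of the same complex had 5.24, 5.15 and 5.12 in Di at 48 h, against 6.42, 7.06 and 6.48 in control at 48 h, or 2.80-fold lower. The Di arrays of NDC80 and of SPC25 all lay below the control arrays, and NUF2, the partner of NDC80, was 1.89-fold lower. CENPN, which reads the centromeric histone CENPA, had 9.09, 9.09 and 8.80 in Di at 48 h, against 8.44, 8.50 and 8.49 in control at 48 h. It was 1.43-fold higher (0.52 ± 0.0961, SE, adjusted p = 0.000921) and every Di array lay above every control array. That direction rests on 1 probe set, since the other 2 CENPN probe sets were called lower at 48 h, by 0.66 (adjusted p = 0.0122) and 0.38 (adjusted p = 0.0333) on the log2 scale, and the mean of the 3 changed by -0.18 (adjusted p = 0.168).

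All 3 measured subunits of the chromosomal passenger complex, which corrects faulty attachments, fell by similar amounts, with a median of -1.52. AURKB, its kinase, had 5.45, 5.06 and 5.11 in Di at 48 h, against 6.79, 6.68 and 6.79 in control at 48 h, or 2.92-fold lower (-1.55 ± 0.106, SE, adjusted p = 3.81e-07). BIRC5, also called survivin, had 6.50, 6.66 and 6.29 in Di at 48 h, against 7.70, 8.18 and 8.13 in control at 48 h, or 2.87-fold lower. CDCA8, also called borealin, had 6.09, 5.84 and 5.57 in Di at 48 h, against 7.06, 7.07 and 7.16 in control at 48 h, or 2.40-fold lower. None of the 3 pairs of groups overlapped.

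Among mitotic kinesins, motors that move along microtubules, 10 of 11 fell, with a median of -0.99. KIF20A, which carries the passenger complex to the spindle midzone for cytokinesis, had 3.29, 4.11 and 3.94 in Di at 48 h, against 7.83, 7.74 and 7.86 in control at 48 h. Of the 3 Di arrays 2 lay under the floor, so that the difference of -4.03 ± 0.161 (SE, adjusted p = 5.95e-09) amounts to a loss of at least 14.0-fold. KIF11, the motor that pushes spindle poles apart, had 5.36, 5.69 and 5.82 in Di at 48 h, against 7.56, 7.85 and 7.80 in control at 48 h, or 4.32-fold lower (-2.11 ± 0.127, SE, adjusted p = 1.41e-07). KIF15, which can take over that role, was at least 1.76-fold lower, with all 3 Di arrays under the floor. KIF14, a kinesin of cytokinesis, had 6.16, 6.65 and 6.46 in Di at 48 h, against 7.38, 7.54 and 7.34 in control at 48 h, or 1.99-fold lower. The groups of KIF20A, KIF11 and KIF14 were each apart. KIF18A, which damps chromosome movements at metaphase, had 6.07, 6.39 and 6.20 in Di at 48 h, against 6.30, 6.67 and 6.65 in control at 48 h. Those ranges overlapped, and the difference was -0.32 ± 0.138 (SE, adjusted p = 0.0762). KIF18A was called without control at 48 h replicate 1 (-0.44, adjusted p = 0.0265) and without Di at 12 h replicate 2 (adjusted p = 0.0461).

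**Figure D5:**
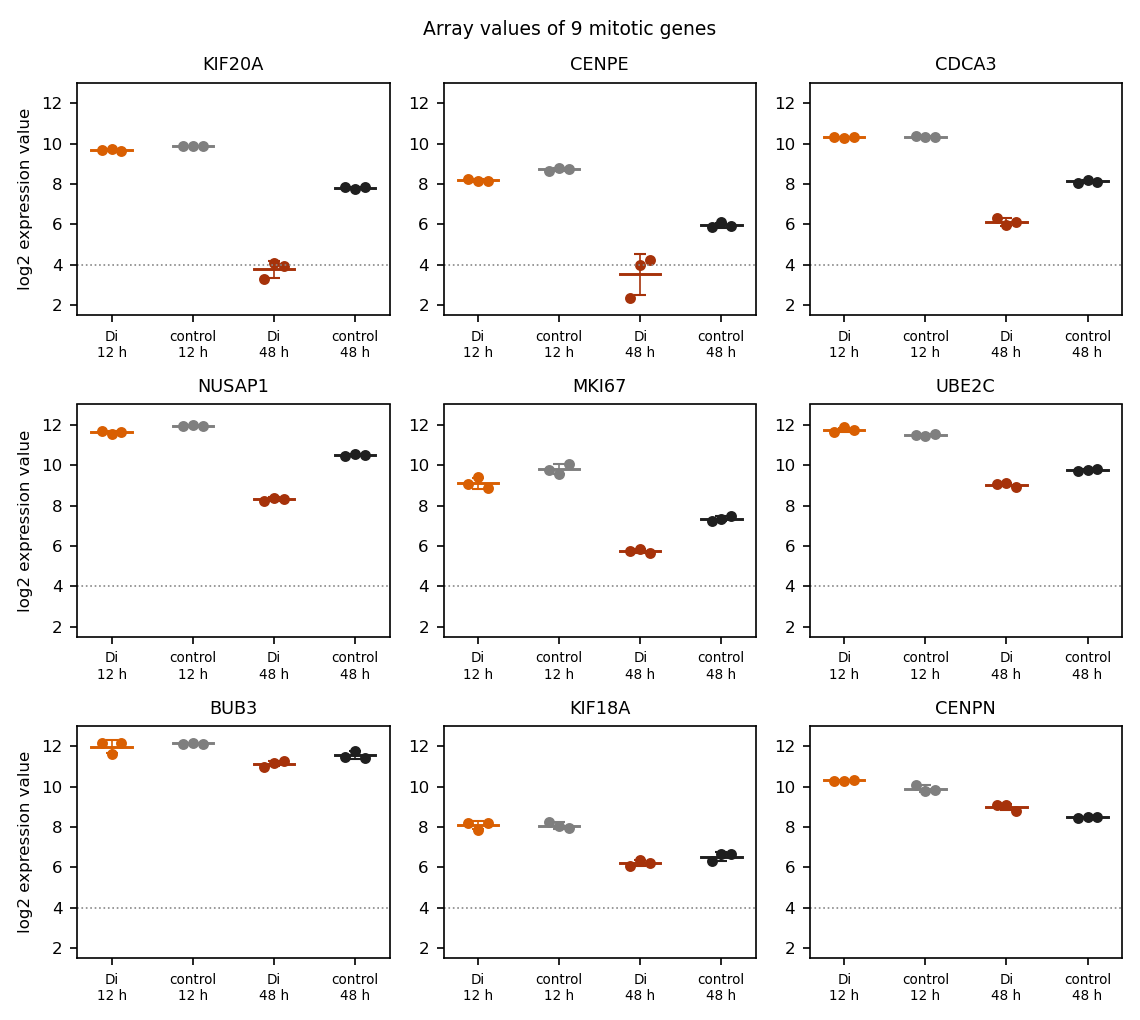
Log2 value of 9 mitotic genes in each array (points), with the mean (line) and SD (bar) of the 3 arrays of each group and a dotted line at the floor of log2 4. KIF20A, CENPE, CDCA3, NUSAP1, MKI67 and UBE2C are lowest in Di at 48 h, BUB3 and KIF18A show small gaps between Di and control, and CENPN is higher in Di than in control at both times by this probe set.

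Spindle assembly genes fell in 6 of 6 cases and had the most negative median of any role, -1.58. NUSAP1, which bundles microtubules near chromosomes, had 8.23, 8.38 and 8.35 in Di at 48 h, against 10.46, 10.56 and 10.51 in control at 48 h. It was 4.57-fold lower (-2.19 ± 0.0657, SE, adjusted p = 6.46e-10), with the arrays of each group close together. HMMR, a microtubule binding protein of spindle poles, had 7.24, 7.66 and 7.34 in Di at 48 h, against 9.25, 9.35 and 9.34 in control at 48 h, or 3.74-fold lower (-1.90 ± 0.118, SE, adjusted p = 1.71e-07). ASPM, which keeps spindle poles focused, had 7.61, 7.49 and 7.64 in Di at 48 h, against 8.89, 8.92 and 8.91 in control at 48 h, or 2.51-fold lower. PRC1, which crosslinks midzone microtubules, had 6.56, 6.72 and 6.59 in Di at 48 h, against 7.73, 7.95 and 7.83 in control at 48 h and was 2.32-fold lower. No Di array reached a control array in HMMR, ASPM or PRC1. DLGAP5 and TPX2, both of which stabilise or nucleate spindle microtubules, were 3.27-fold and 2.73-fold lower.

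Cytokinesis genes fell in 4 of 4 cases, with a median of -0.95. ANLN had 8.15, 8.21 and 8.04 in Di at 48 h, against 9.34, 9.55 and 9.29 in control at 48 h, or 2.39-fold lower (-1.26 ± 0.115, SE, adjusted p = 3.95e-06). RACGAP1, part of the centralspindlin complex, had 8.63, 9.12 and 9.10 in Di at 48 h, against 10.02, 10.17 and 9.91 in control at 48 h, or 2.12-fold lower. ECT2, the exchange factor that switches on RhoA at the equator, had 9.56, 9.69 and 9.73 in Di at 48 h, against 10.20, 10.29 and 10.16 in control at 48 h and was 1.47-fold lower. All these groups were apart. For ECT2 the mean of its 3 probe sets gave -0.29 (adjusted p = 0.273).

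Chromosome structure genes fell in 6 of 6 cases, with a median of -1.15. MKI67, which coats mitotic chromosomes and is read in pathology as a mark of proliferation, had 5.75, 5.87 and 5.66 in Di at 48 h, against 7.24, 7.32 and 7.48 in control at 48 h. It was 3.01-fold lower (-1.59 ± 0.151, SE, adjusted p = 5.43e-06). TOP2A, the enzyme that untangles sister DNA, had 8.97, 8.95 and 8.93 in Di at 48 h, against 10.45, 10.64 and 10.48 in control at 48 h, or 2.97-fold lower. NCAPG of condensin I had 7.53, 7.76 and 7.39 in Di at 48 h, against 8.91, 9.02 and 9.13 in control at 48 h, or 2.76-fold lower. SMC4, shared by both condensins, had 10.18, 10.24 and 10.24 in Di at 48 h, against 11.06, 11.18 and 10.92 in control at 48 h, or 1.79-fold lower. None of these ranges met. NCAPH had 3.37, 3.68 and 3.66 in Di at 48 h, against 4.09, 4.41 and 4.09 in control at 48 h, all Di arrays under the floor and under the control arrays, so its loss is bounded only at 1.15-fold or more.

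At 12 h the Di and control cells differed less in these genes. Of 59 members 16 fell in Di at 12 h, beside 9.78% of all genes tested, 2 rose, beside 3.90%, and 41 were not called. The median change was -0.25 for the members and -0.06 for all genes, with a range from -0.68 to 0.40. Of the members 30 were lower with no overlap between the groups, beside 23.6% of all genes, and 26 overlapped. The other 3 were higher with no overlap, and as the share of all genes was not counted for that direction, nothing is read from it. The control arrays at 12 h also serve the comparison over time in control cells, so each is given with its own values. The number of calls depended on single arrays and on scaling. The 18 calls became 8 without Di at 12 h replicate 3, 12 without Di at 12 h replicate 2, the array farthest from its group, 6 without control at 12 h replicate 2 and 6 without control at 12 h replicate 3. With each array centred on the median of the genes tested, 10 members were lower, beside 5.82% of all genes, and 2 were higher, beside 735 of all 10626 genes. Of all calls under that centring 54.3% were in the higher direction, against 28.5% on the deposited scale. The actin 3′ minus 5′ gap was 1.22 ± 0.239 in the Di arrays at 12 h and 1.71 ± 0.178 in the control arrays at 12 h (log2, SD, n = 3 each, exact two-sided permutation p = 0.1, the smallest possible), and its part in these changes was not tested.

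Of the 16 members that fell at 12 h, 5 belonged to chromosome structure and 3 to spindle assembly. MKI67 had 9.08, 9.40 and 8.85 in Di at 12 h, against 9.77, 9.55 and 10.06 in control at 12 h, the largest change of a member at this time (-0.68 ± 0.151, SE, adjusted p = 0.0144), with no overlap. ASPM had 10.31, 10.11 and 10.31 in Di at 12 h, against 10.86, 10.87 and 10.89 in control at 12 h, with a wide gap between the groups (-0.63 ± 0.0711, SE, adjusted p = 0.000864). HMMR had 10.64, 10.27 and 10.47 in Di at 12 h, against 11.05, 11.08 and 10.96 in control at 12 h, or 1.48-fold lower. NCAPG had 10.64, 10.40 and 10.44 in Di at 12 h, against 11.00, 10.98 and 11.16 in control at 12 h, or 1.47-fold lower. TOP2A had 11.67, 10.96 and 11.52 in Di at 12 h, against 11.96, 11.85 and 12.11 in control at 12 h, or 1.51-fold lower. In TOP2A the second Di array was well below the other 2, and in none of the 3 genes did the groups overlap. NUSAP1 had 11.69, 11.56 and 11.66 in Di at 12 h, against 11.94, 11.97 and 11.94 in control at 12 h, or 1.24-fold lower. SMC4 had 11.79, 11.61 and 11.72 in Di at 12 h, against 11.94, 12.10 and 12.03 in control at 12 h, or 1.25-fold lower, and the groups were apart in both genes. SMC2, the other core subunit of condensins, was 1.21-fold lower. MKI67 was not called without control at 12 h replicate 3 (adjusted p = 0.0548), TOP2A without any 1 of the control arrays at 12 h (0.0534 to 0.0967), and SMC4 without replicate 2 or 3 of Di or of control at 12 h (0.0626 to 0.101). With the mean of all kept probe sets of a gene, ASPM (-0.61, adjusted p = 0.0643), SMC4 (-0.31, adjusted p = 0.0874) and NUSAP1 (-0.09, adjusted p = 0.416) were not called at 12 h.

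The other 8 members that fell at 12 h came from 5 roles. BUB1B, the checkpoint kinase-like protein that binds CDC20, had 8.89, 8.93 and 8.72 in Di at 12 h, against 9.33, 9.19 and 9.34 in control at 12 h and was 1.36-fold lower (-0.44 ± 0.0854, SE, adjusted p = 0.00869). KIF14 had 9.35, 9.16 and 9.16 in Di at 12 h, against 9.65, 9.84 and 9.85 in control at 12 h, or 1.48-fold lower (adjusted p = 0.0128). The groups of BUB1B and of KIF14 did not overlap. CDC25B had 10.05, 10.36 and 10.01 in Di at 12 h, against 10.32, 10.62 and 10.80 in control at 12 h, and its groups overlapped although it was called at an adjusted p of 0.0494. ECT2 had 11.49, 11.16 and 11.37 in Di at 12 h, against 11.67, 11.66 and 11.71 in control at 12 h, or 1.27-fold lower without overlap, but the mean of its 3 probe sets was 0.21 higher in Di (adjusted p = 0.549). FOXM1, TTK, CENPF and KIF22 were 1.32-fold, 1.24-fold, 1.46-fold and 1.48-fold lower. KIF14 was not called without control at 12 h replicate 2 (adjusted p = 0.0506), ECT2 without Di at 12 h replicate 2 or 3 or any 1 control array at 12 h (0.0602 to 0.0892), and CDC25B was lost when any 1 of 9 arrays was left out (0.058 to 0.16). Of the passenger complex genes 0 were called at 12 h, by limma, and 0 had an unadjusted p under 0.05. CDCA3, with 10.34, 10.29 and 10.33 in Di at 12 h, against 10.36, 10.31 and 10.34 in control at 12 h, was nearly level between the groups.

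The 2 members that rose at 12 h were CENPN and UBE2C. CENPN had 10.30, 10.29 and 10.33 in Di at 12 h, against 10.08, 9.79 and 9.84 in control at 12 h, or 1.32-fold higher (0.40 ± 0.0961, SE, adjusted p = 0.0198). UBE2C had 11.65, 11.86 and 11.73 in Di at 12 h, against 11.50, 11.46 and 11.53 in control at 12 h, or 1.19-fold higher (0.25 ± 0.0754, SE, adjusted p = 0.0496). Neither pair of groups overlapped. CENPN was not called without Di at 12 h replicate 3 or control at 12 h replicate 2 or 3 (adjusted p 0.0586 to 0.0805), nor with the mean of its 3 probe sets (0.26, adjusted p = 0.107), and UBE2C was lost when any 1 of 10 arrays was left out (0.0578 to 0.142). UBE2C thus lay above control at 12 h and below it at 48 h, with a difference between the 2 changes of -0.97 (adjusted p = 4.19e-05).

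The change between times was tested directly. For 47 of 59 members the Di change was more negative at 48 h than at 12 h, beside 18.5% of all genes, and for 0 was it more positive, beside 19.8%, by limma's interaction term. At an unadjusted p under 0.05 the count of more positive members was also 0. The median difference was -0.90 for the members and 0.02 for all genes. KIF20A differed most, by -3.82 (SE 0.228, adjusted p = 4.40e-07), and CDCA3, KIF11, CENPE and NUSAP1 differed by -1.99, -1.90, -1.90 and -1.88. Among genes already lower at 12 h, the difference between times was -0.90 for MKI67, -0.98 for TOP2A and -0.70 for ASPM, while KIF14 (-0.43, adjusted p = 0.0668), CDC25B (-0.10, adjusted p = 0.72) and ECT2 (-0.21, adjusted p = 0.207) did not pass. All 6 spindle assembly genes and all 3 passenger complex genes passed, and 7 of 11 kinesins did.

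Further probe sets of the same genes mostly shared the sign of the chosen one at 48 h and did so less at 12 h. There were 44 of them, for 29 members. At 48 h 41 of 44 had the sign of the chosen probe set and 34 were called lower, and over time in control cells 44 of 44 had its sign and 41 were called lower. At 12 h 26 had the same sign and 18 the opposite one, 5 were called lower and 3 higher. Those 3 belonged to CDK1 (0.29, adjusted p = 0.0444), BUB3 (0.31, adjusted p = 0.0476) and MAD2L1 (0.46, adjusted p = 0.0175), genes whose chosen probe sets were not called at 12 h. Of the 5 called lower, that of CCNB1 (-0.34, adjusted p = 0.0411) also belonged to a gene not called by its chosen probe set. The rest belonged to CENPF, HMMR, SMC4 and MKI67, which were called lower by the chosen one too. NUSAP1, lower at 12 h by its chosen probe set, had 0.13 by its other one (adjusted p = 0.508).

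Other genes of the same machinery and of the cell cycle were read from lists of names, beside 28.0% of all genes lower and 22.9% higher in Di at 48 h. Of 53 measured further mitotic genes 38 fell and 1 rose in Di at 48 h. The spindle proteins FAM83D and CKAP2L, and CDCA2, which brings a phosphatase to chromosomes, changed by -2.48, -1.83 and -1.72, and MAD1L1, a checkpoint protein, by 0.38 (adjusted p = 0.04). For CKAP2L 2 of the Di arrays at 48 h lay under the floor. MAD1L1 was not called without Di at 48 h replicate 2 or 3 or control at 48 h replicate 1 or 2 (adjusted p 0.101 to 0.142). Of 13 subunits of the anaphase promoting complex 4 fell and 1 rose, with a median of -0.09, so that their share of lower genes was near that of all genes. ANAPC15, ANAPC4 and ANAPC13 changed by -0.74, -0.70 and -0.27 and ANAPC10 by 0.44. ANAPC10 was not called without Di at 48 h replicate 2 or 3 or control at 48 h replicate 2 (adjusted p 0.0653 to 0.0912), and the mean of its probe sets gave 0.03 (adjusted p = 0.905).

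Tubulins and gamma tubulin complex genes, the building blocks of spindle microtubules and the complexes that seed them, had 9 of 17 lower and 3 higher, the share of higher genes being below the 22.9% of all genes, and a median of -0.29. TUBA1A, TUBB and TUBB2B fell by 1.48, 1.17 and 0.99 on the log2 scale, whereas TUBA4A, TUBGCP4 and TUBB2A rose by 0.51, 0.40 and 0.26. With the mean of its probe sets TUBGCP4 was not called (0.07, adjusted p = 0.74). Genes of DNA replication, which act before mitosis, fell in 27 of 30 cases with 0 higher (limma, also 0 at an unadjusted p under 0.05) and a median of -1.24. MCM7 of the replicative helicase had 5.94, 5.62 and 5.87 in Di at 48 h, against 8.85, 8.99 and 8.96 in control at 48 h, or 8.70-fold lower. RRM2, which makes deoxynucleotides, was 8.40-fold lower, and the licensing factor CDT1 at least 2.51-fold lower.

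Of 31 regulators of the cell cycle 7 were higher and 13 lower in Di at 48 h, and the share of higher genes was near the 22.9% of all genes. CDKN1A, which encodes the kinase inhibitor p21, had 11.22, 11.38 and 11.39 in Di at 48 h, against 9.42, 9.55 and 9.59 in control at 48 h, or 3.50-fold higher, and it was also higher at 12 h (log2 0.48). CDKN2B, an inhibitor of CDK4 and CDK6, was 6.47-fold higher at 48 h, the repressor E2F7 2.27-fold and the G1 cyclin CCND1 2.20-fold. CCNE2, a cyclin of S phase entry, was 6.50-fold lower, E2F8 at least 1.51-fold and RBL1 2.16-fold. MYBL2, which carries the complex that activates mitotic promoters, had 6.76, 6.10 and 6.23 in Di at 48 h, against 6.76, 6.95 and 6.97 in control at 48 h, a difference of -0.53 (adjusted p = 0.0104), with the first Di array at the level of the first control array. E2F1 had -0.30 and was not called (adjusted p = 0.323).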

How the data were processed

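Expression was measured in 12 samples of the human HK-2 line, 3 in each of 4 groups taken from the labels, on an Affymetrix human array after biotinylated cRNA was made. Each deposited value is a log2 expression level produced by the authors through GCRMA, per the submitters' processing notes. GCRMA corrects background, normalises between arrays and summarises probes, which can push low values together, so values under a floor of log2 4 give only a bound. No second normalisation was applied. An array has no counting depth, and the number of arrays limits precision.

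A gene table for the array gave 41097 of 54675 probe sets 1 symbol, 1801 several and 11777 none, and 62 control probe sets were left out. Probe sets above log2 4 in at least 3 of 12 arrays were kept, and each gene was read from the kept probe set with the highest mean, one without the cross-hybridisation mark (_x_at) where there was one. This left 10626 genes. All 12 arrays entered 1 linear model holding a mean for each group (limma 3.58.1, R 4.3.3, lmFit and eBayes, two-sided), p-values were adjusted by Benjamini-Hochberg over all 10626 genes, and an adjusted p under 0.05 was called. Errors beside log2 changes are standard errors. The fitting was tested on simulated data. Figures used matplotlib 3.10.9 in Python 3.11.15.

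The genes and the other lists (further mitotic genes, anaphase promoting complex, tubulins, DNA replication, cell cycle regulators, and markers of proximal tubule, fibroblast, endothelium and leukocyte, and other kidney segments) were chosen with earlier results of these data known. Array values are given for the 2 genes of each role with the largest and the 1 with the smallest change at 48 h, those called at 12 h (at most 10) or called higher, those not called at 48 h, and the 4 largest control changes. From each other list the 3 largest called changes each way are named, with CDKN1A, E2F1, MYBL2 and CCND1 in any case. Of these list genes only MCM7, CDKN1A and MYBL2 are given with array values. Other members that are named, PLK1 among them, were chosen with their values known. 1 further gene of that rule is not reported here. Alternatives covered the filter, the moderation, the scaling, the probe sets, the arrays in the fit, the replicate number as a block and each array left out.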

Additional observations from a re-analysis of the deposited data

Results flagged for a closer look

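Of the mitotic genes given with array values, 31 were named by the stated rule. PLK1 was not, and it did not pass limma's interaction term (-1.21, adjusted p = 0.0530). For 24 of the 31, the change of Di against control differed between 48 h and 12 h by that term (adjusted p under 0.05 over all genes). In each case it was more negative at 48 h, beside 18.5% of all genes more negative and 38.3% that differed either way. Many of the 31 were picked for a large change at 48 h, so nothing is read from this count. The differences (log2 change at 48 h minus log2 change at 12 h) were -1.99 for CDCA3 and -1.69 for CDC25C in mitotic entry. In the checkpoint and anaphase role they were -1.23 for ESPL1, -1.24 for CDC20, -0.49 for BUB1B and -0.97 for UBE2C. At the kinetochore they were -1.9 for CENPE, -1.64 for NDC80 and -1.48 for SPC25, and in the passenger complex -1.65 for AURKB, -1.58 for BIRC5 and -1.2 for CDCA8. KIF20A had the largest at -3.82, and KIF11 had -1.9. Spindle assembly gave -1.88 for NUSAP1, -1.33 for HMMR, -0.97 for PRC1 and -0.7 for ASPM, and cytokinesis gave -1.03 for ANLN and -0.95 for RACGAP1. Chromosome structure gave -0.9 for MKI67, -0.98 for TOP2A, -0.91 for NCAPG and -0.52 for SMC4. With the mean of all kept probe sets of a gene, ASPM (-0.35, adjusted p = 0.353) and SMC4 (-0.25, adjusted p = 0.229) were not called. KIF20A, CENPE and ESPL1 had Di arrays at 48 h under the floor, so the sizes of their differences depend on values that bear no exact level.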

How the results depend on the processing

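In control cells over time all 59 members were called lower under every alternative, and at 48 h 55 to 59 members were called in Di against control. The count for the difference between times was 47 as reported and 43 to 52 under the alternatives. The 12 h count moved by over 1.5 times. It was 18 as reported, 20 with a floor of log2 6, 21 with trend and robust moderation, 11 with no filter on low values, 7 with only the arrays of the contrast in the fit and 6 to 18 with 1 array left out. Medians with 1 array left out ran from -1.15 to -1.02 at 48 h, -0.99 to -0.88 for the difference between times and -1.97 to -1.86 in control cells, and their direction held. With the mean of all kept probe sets of a gene the 12 h median was -0.17 and that of the difference -0.97. With each array centred on the median of the genes tested, chosen after seeing the data, the 12 h median was -0.16 and that of control cells over time -1.82. With the mean of all kept probe sets 2 directions reversed, CENPN at 48 h (-0.18) and ECT2 at 12 h (0.21), through the other probe sets of those genes. Of 132 results on named genes 111 kept direction and call under every alternative and 21 changed call. Same-numbered arrays of different groups had correlations of deviations from -0.39 to 0.17, so the numbers were not taken as pairs, and with the replicate block the 12 h count was 11, against 57 at 48 h, 47 for the difference and 59 in control cells. The causes were not tested beyond what each alternative changes by its construction. Signal near background limits KIF20A, CENPE, KIF15, NCAPH and PLK1 at 48 h to bounds.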

Other observations

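Markers of the cells were read at 48 h beside the mitotic genes. Among the 7 measured proximal tubule markers 3 fell and 2 rose in Di at 48 h, beside 28.0% of all genes lower and 22.9% higher. With so few markers nothing is read from these counts. The cell adhesion genes CDH1 and CDH2 had changes of -1.33 and -0.98 and the keratin KRT19 of -1.19, against 0.39 for the kidney transcription factor PAX8 and 0.20 for KRT18 (adjusted p = 0.0459, lost under most alternatives). Of the 3 measured fibroblast markers the matrix genes DCN and LUM fell by 1.01 and 0.72 on the log2 scale, LUM not being called without Di at 48 h replicate 1 (adjusted p = 0.0848) or control at 48 h replicate 2 (adjusted p = 0.0774). AQP3, a water channel of the collecting duct and 1 of 2 measured markers of other kidney segments, was at least 1.52-fold lower.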
